A study of Mus musculus with 12 samples.

Results

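The 7 genes described here, Pecam1, Cdh5, Flt1, Tek, Stab1, Lyve1 and Clec4g, are widely used markers of endothelial cells, the cells that line blood and lymph vessels. They were taken by name from the peak table of an m6A study of mouse liver, with every peak listed under each name. This gave 13 peaks in 7 genes, of 17503 peaks in 10277 named genes. The study compared livers of wild-type and Mettl3-deficient C57BL/6 mice, called postnatal in its title, with no other treatment named in the labels. Each genotype had 3 replicates, each with an input mRNA library and a library of RNA fragments pulled down with an anti-m6A antibody, 12 libraries in 4 groups. The labels do not give the ages of the mice, nor the promoter or cell type in which Mettl3 was lost, so whether the endothelial cells themselves lacked Mettl3 is not known here.

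N6-methyladenosine (m6A) is a methyl mark on adenosines inside mRNA. It is placed by a nuclear complex whose catalytic subunit is METTL3, gathers around stop codons and in 3′ UTRs, and is bound by reader proteins that act on mRNA decay and translation. The liver sinusoids are lined by a specialised, fenestrated endothelium that takes up waste molecules from the blood through scavenger and lectin receptors, while junction proteins and receptor tyrosine kinases are shared with endothelium elsewhere. Hepatocytes make up most of the liver's mRNA, so these transcripts come from a minor cell population of the bulk tissue. No level of RNA was available for any gene, so the presence of endothelial RNA could not be checked by expression. In bulk tissue, fewer cells of a type and less RNA per cell cannot be told apart.

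All changes below are log2 fold changes between the genotypes, 1 per peak, from the authors' deposited table. Values per mouse were not used here, so no spread between mice and no new test of a peak could be given. The numerator of the fold change is not stated; from the design, a positive value likely means more m6A enrichment in Mettl3-deficient liver, and the text keeps to the sign. A peak was called where its deposited false discovery rate (FDR) was 0.05 or below.

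Every one of the 13 endothelial peaks had a value above 0. Of them 9 were called, all positive, and 4 were not called. Among all listed peaks 76.2% were called and 35.6% were called positive, and 51.9% had a value above 0. By the leading peak of each gene, the one with the smallest FDR, the 7 genes were all positive and called, against 33.6% of all listed genes. The median over the 13 peaks was 0.89, a ratio of 1.85, beside 0.34 over all listed peaks. Since the genes were picked with these directions already known, the counts describe them and were not tested.

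**Figure D1:**
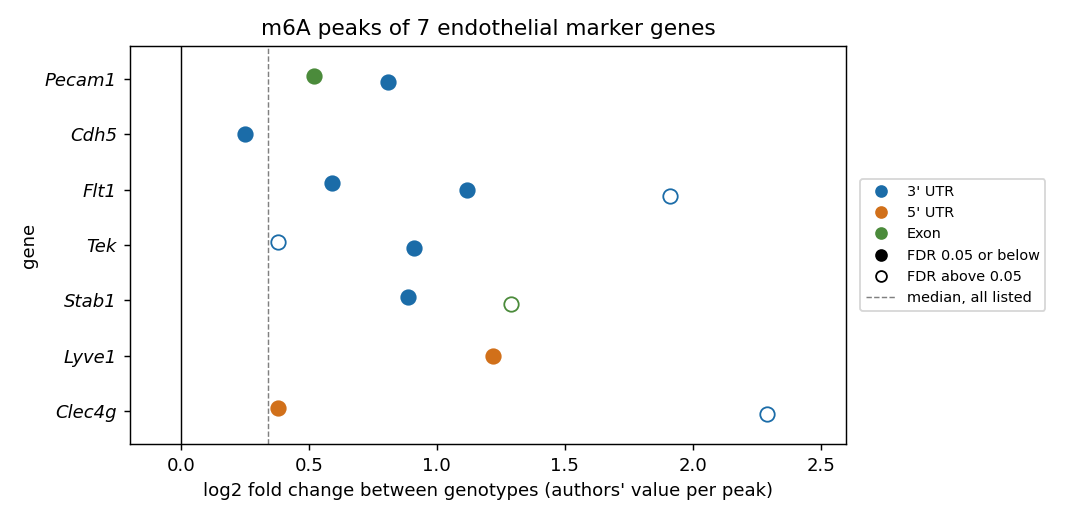
Log2 fold change between the genotypes (x axis) for every listed m6A peak of the 7 genes (rows), coloured by the annotated feature, filled where the FDR was 0.05 or below and open where it was above. All 13 points lie to the right of 0, and the called one of Cdh5, at 0.25, lies left of the dashed median of all listed peaks, 0.34.

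Pecam1 and Cdh5 encode the adhesion proteins of endothelial cell contacts. PECAM-1 (CD31) binds its like on the neighbouring cell, and VE-cadherin, the product of Cdh5, is the cadherin of endothelial adherens junctions. Pecam1 (ENSMUSG00000020717, chromosome 11) had a peak annotated 3′ UTR at chr11:106654876-106661347 on mm10, with 0.81 (FDR 2.4e-08) in the authors' deposited table. The second Pecam1 peak, at chr11:106685171-106691091 and annotated to exon 6 of 14, stood at 0.52 (FDR 0.00447) in the authors' deposited table. Both Pecam1 peaks were thus positive and called, one at each of 2 separate places in the gene. Cdh5 (ENSMUSG00000031871, chromosome 8) had a single peak, annotated 3′ UTR at chr8:104140814-104144481, with 0.25 (FDR 3.98e-06) in the authors' deposited table. That is a ratio of 1.19 and the smallest change among the 13 peaks. It stood at percentile 1.07 of all positive called peaks, and its difference from the median of all listed peaks was -0.09.

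Flt1 and Tek encode receptor tyrosine kinases of vessel growth and stability: Flt1 the VEGF receptor 1, which holds VEGF-A tightly and in its soluble form acts as a decoy, and Tek the angiopoietin receptor TIE2. Flt1 (ENSMUSG00000029648, chromosome 5) had 3 listed peaks, the most of the 7 genes, all annotated 3′ UTR. The peak at the end of the gene, chr5:147561664-147562353, ends 60 bp before the RefSeq end of transcription and stood at 0.59 (FDR 0.000912) in the authors' deposited table. The other two lie in the middle of the gene. The wide one, chr5:147639024-147644897, lies 77420 bp before the RefSeq 3′ end and stood at 1.12 (FDR 0.0224) in the authors' deposited table. A small one, chr5:147635821-147635881, is 61 bp wide and stood at 1.91 but was not called (FDR 0.347) in the authors' deposited table. The annotated transcript is the same for all 3 Flt1 peaks, and which transcript's 3′ UTR the label of the middle peaks refers to is not given. The soluble receptor is known to arise from transcripts that end within an intron, but no exon map was used here to place these peaks against one.

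Tek (ENSMUSG00000006386, chromosome 4) had a called peak of 270 bp at the very end of the gene, chr4:94874618-94874887, with 0.91 (FDR 0.00174) in the authors' deposited table. Just before it a peak of 8811 bp, chr4:94865450-94874260, also annotated 3′ UTR, stood at 0.38 and was not called (FDR 0.1) in the authors' deposited table. Both receptors therefore had a called positive peak within 100 bp of their RefSeq 3′ end, of 0.59 in Flt1 and 0.91 in Tek in the authors' deposited table.

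Stab1, Lyve1 and Clec4g encode uptake and binding receptors that are abundant in sinusoidal endothelium. Stabilin-1, the product of Stab1, is a scavenger receptor also found on some macrophages, LYVE-1 is a hyaluronan receptor of sinusoidal and lymphatic endothelium, and Clec4g encodes the C-type lectin LSECtin. Stab1 (ENSMUSG00000042286, chromosome 14) had a called 3′ UTR peak of 151 bp at chr14:31139013-31139163, with 0.89 (FDR 1.1e-05) in the authors' deposited table. By RefSeq spans, 112 bp of that peak also lie in the end of Nt5dc2, which runs on the opposite strand, and whether the authors' counting used strand is not given in the sources used here. The second Stab1 peak, in an exon at chr14:31158643-31158793, stood at 1.29 and was not called (FDR 0.309) in the authors' deposited table. Lyve1 (ENSMUSG00000030787, chromosome 7) had a single peak, at chr7:110859618-110862971, annotated 5′ UTR of a retained-intron transcript, with 1.22 (FDR 0.00479) in the authors' deposited table. This was the largest change among the 9 called peaks, a ratio of 2.33, at percentile 89.2 of all positive called peaks.

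Clec4g (ENSMUSG00000074491, chromosome 8) had the called peak with the strongest evidence and nearly the smallest change. It spans chr8:3708824-3720651, 86.8% of the RefSeq gene, though its label is 5′ UTR, and stood at 0.38 (FDR 1.26e-27) in the authors' deposited table. Over 11170 bp it also overlaps Gm16553, a lncRNA gene on the opposite strand. The second Clec4g peak, 268 bp at the 3′ end of the gene (chr8:3707064-3707331), had the largest value of the 13, 2.29, and was not called (FDR 0.12) in the authors' deposited table. So in Clec4g the wide peak was called at a small change and the narrow one was not called at a large change.

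The wide Clec4g peak ends at base 3720651 of chromosome 8, which is the first transcribed base of the Clec4g promoter window in RefSeq (GRCm38.p6, the same build as mm10). The RefSeq span of the gene begins 44 bp before that base. The wide Clec4g peak was the single case among the 7 genes in which a listed peak met a RefSeq promoter window. Flt1, Tek and Stab1 had windows that no listed peak reached, and Pecam1, Cdh5 and Lyve1 had no such window. The stretch below is shown because it is sequence inside a called endothelial peak. It is 30 bases of the transcribed strand (minus strand, chr8:3720616-3720645), starting at the first ATG of the transcribed end of the window. Capitals mark the match to the core motif searched on the transcribed strand, GGAC or the same letters with A in place of either or both G, a short form of the sequence METTL3 prefers.
Clec4g: atGAACactggtgaatacaacaagctgggc

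The stretch holds 1 match, GAAC, from its base 3. Of all 32851 promoter windows in the table, 33.7% hold at least 1 of these 4 forms in the same 30 positions, so such a match is common and marks no methylated site by itself. The peaks of the other endothelial genes are given by position alone.

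**Figure D2:**
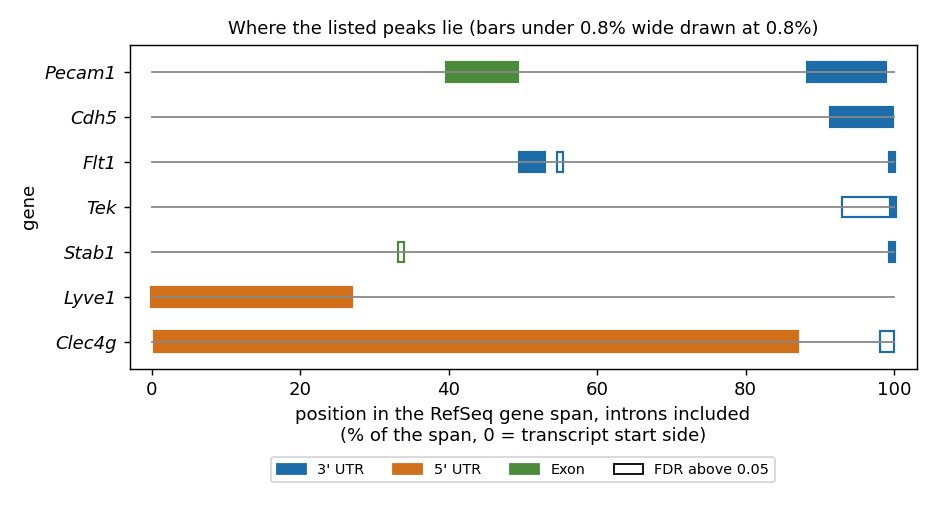
Position of each listed peak (bars) along the RefSeq span of its gene (rows), as percent of the span with introns included and 0 at the transcript start, coloured by the authors' feature label and open where the FDR was above 0.05. Pecam1, Cdh5, Flt1, Tek, Stab1 and Clec4g each have a peak at the 3′ end, Flt1 also has 2 near the middle, and the Clec4g peak labelled 5′ UTR covers 86.8% of its gene.

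By position, 9 of the 13 peaks were annotated 3′ UTR, 2 5′ UTR and 2 exon. In the 3′ UTR 6 of the 9 endothelial peaks were called positive and none negative. Of all 9804 listed 3′ UTR peaks 3144 were called positive, 39.6% of those called, and their median was -0.52. Both 5′ UTR peaks were called positive, as were 2271 of all 4252 listed 5′ UTR peaks, 69.9% of those called. Of the 2 exon peaks that of Pecam1 was called positive. Of all 3447 listed exon peaks 823 were called positive, 38.2% of those called. The direction in the 5′ UTR was therefore that of most listed peaks there, and in the 3′ UTR it was that of the minority. Of the 5 genes with at least 2 listed peaks, all had every value above 0, as had 31.1% of the 4593 genes with at least 2 peaks in the whole table.

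The sizes of change were moderate. The 9 called peaks ran from 0.25 in Cdh5 to 1.22 in Lyve1, with a median of 0.81, in the authors' deposited table, and all positive called peaks had a median of 0.73. Of the 13 peaks 2 were called with a change of at least 1, in Lyve1 and Flt1, against 7.80% of all listed peaks called positive at that size. With an FDR of 0.01 or below 8 of the 13 peaks were called, beside 29.6% of all listed peaks called positive, and with 0.001 or below 5, beside 23.5%. After subtracting the all-peak median of 0.34, 8 of the called peaks were positive and 1, that of Cdh5, negative, in place of 9 and 0. Here and for the lists below the deposited FDR was kept, and only the sign was counted anew. The wide Clec4g peak then stood at 0.04 and the Pecam1 exon peak at 0.18.

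**Figure D3:**
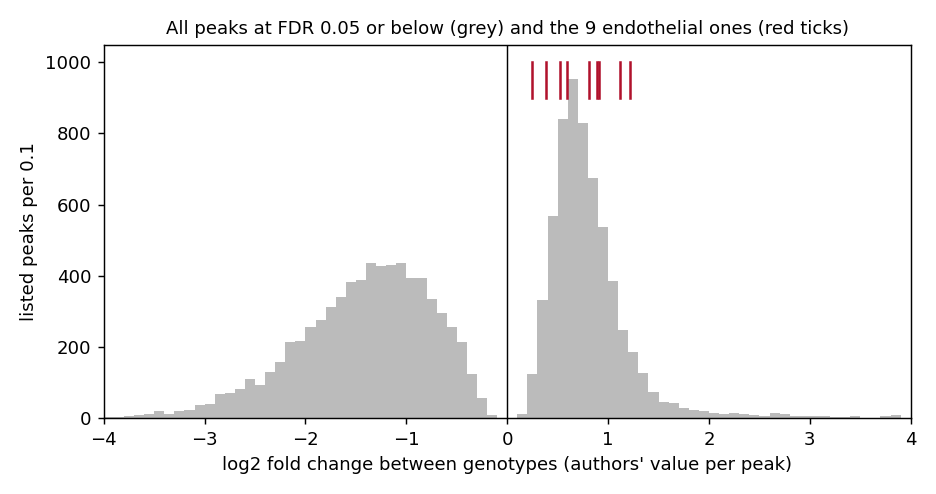
Histogram of the log2 fold change (x axis) of all 13345 called peaks, in bins of 0.1, with the 9 called endothelial peaks as red ticks; 45 peaks beyond 4 in either direction lie outside the axis. The ticks run from 0.25 to 1.22, within the narrower positive group of peaks, whose median is 0.73.

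Among the 13 peaks, those of up to 300 bp had larger values and were called less often than those over 1000 bp. Widths run on the genome and include introns. Over 1000 bp lay 7 of the 13 endothelial peaks (53.8%), against 33.5% of all listed peaks, and their median width was 3354 bp against 480 bp. Of the 7 wide peaks 6 were called positive, with a median change of 0.52 over the 7. Among all 5857 listed peaks over 1000 bp, 2363 were called positive and 2732 negative, with a median of -0.19. The 7 wide endothelial peaks were all over 3 kb. Among the 3171 listed peaks over 3 kb, 1457 were called positive and 1240 negative. Their median of 0.44 was near the 0.52 of the 7. Of the 5 peaks of up to 300 bp, 2 were called positive, in Stab1 and Tek, and the median of the 5 was 1.29. Of all 6176 listed peaks of up to 300 bp, 2301 were called positive and 1280 negative. The 3 largest values, in Clec4g, Flt1 and Stab1, were all narrow peaks that were not called. The whole table showed a like order of sizes: positive peaks that were not called had a median of 1.11 and a median width of 211 bp, and positive called peaks 0.73 and 479 bp. For wide peaks in the 3′ UTR, those of Pecam1, Cdh5 and Flt1 were called positive and that of Tek was not called. Of all 2597 listed 3′ UTR peaks over 1000 bp 726 were called positive, 30% of those called. The 2 sets differ in width: the median was 6173 bp for the 4 endothelial peaks and 2422 bp for all listed ones. The part of read depth in these sizes was not tested.

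**Figure D4:**
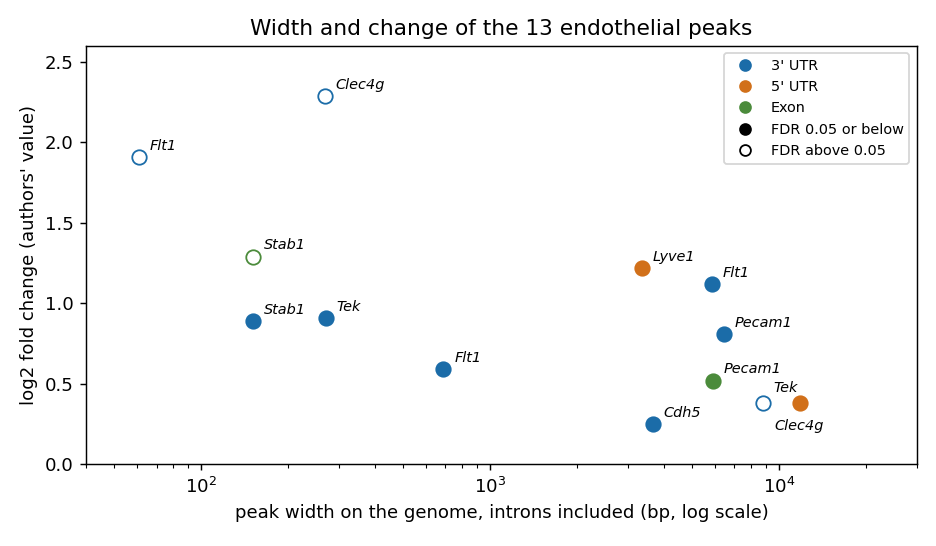
Width on the genome in bp (log scale, x axis) against the log2 fold change (y axis) of the 13 endothelial peaks, coloured by feature and open where the FDR was above 0.05. The open points of Clec4g, Flt1 and Stab1, at 2.29, 1.91 and 1.29, are all narrower than 300 bp, and the 7 peaks over 1000 bp lie between 0.25 and 1.22.

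The annotation in the table placed 4 of the 7 genes in KEGG pathways. Pecam1 and Cdh5 shared cell adhesion molecules, leukocyte transendothelial migration and fluid shear stress. Of the other listed genes of leukocyte transendothelial migration 35 of 71 had a positive called leading peak and 25 a negative one, and of those of cell adhesion molecules 28 of 65 were positive and 22 negative. Flt1 and Tek shared the Rap1, Ras, MAPK, PI3K-Akt and HIF-1 signalling pathways. Among the 128 other listed genes of Rap1 signalling 41 were positive and 61 negative, and among the 166 of MAPK signalling 54 and 79. A disease term they also shared, rheumatoid arthritis, had 20 positive and 8 negative of 40. Over all listed genes 3448 leading peaks were positive and 4887 negative, 41.4% positive of those called. The 5 signalling pathways also held more negative than positive leading peaks, as the whole table did, so their counts are no feature of these pathways.

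Other genes of liver endothelium were counted in the same way. Their lists were drawn up with the results for the 7 genes and other earlier results of these data known, so the counts are description only. Of 22 further genes of sinusoidal endothelium 15 were listed, and all 15 had a positive called leading peak, against 33.6% of all genes. The median was 0.68, beside -0.52 over all genes, and the range ran from 0.25 to 1.36. The 32 peaks of these 15 genes all had values above 0, 23 of them called. The 4 with the strongest evidence in the authors' deposited table were Ehd3 (0.48), the receptor gene Gpr182 (0.46), the secreted nuclease gene Dnase1l3 (0.51) and Oit3 (0.47). After subtracting the all-peak median 14 were still positive and Gata4, at 0.25 in the authors' deposited table and named after its value was seen, turned negative.

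The wider pan-endothelial list was mostly positive, but mixed. Of 43 genes 30 were listed, with 39 of their 46 peaks above 0, against 51.9% of all listed peaks. By leading peak 22 genes were called positive (73.3%, against 33.6% of all genes), 5 negative and 3 not called. The 4 with the strongest evidence were all negative in the authors' deposited table: Egfl7, a secreted vessel factor, at -1.79, the sphingosine 1-phosphate receptor gene S1pr1 at -1.68, the endothelin-converting enzyme gene Ece1 at -1.33 and the leukocyte adhesion gene Icam1 at -0.96. Egfl7, Ece1 and Icam1 each also had at least 1 called positive peak, and S1pr1 had 2 negative ones. Endothelial genes as a whole were therefore not all positive.

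Partners of the 7 proteins went both ways. Of 20 genes of VEGF and angiopoietin signalling 10 were listed, 5 positive (50%), 3 negative and 2 not called. In the authors' deposited table Vegfa, the main ligand of the VEGF receptors, stood at -0.95 and Plcg1, a phospholipase that these receptors activate, at -0.99. Positive there were Ptprb (0.93), which encodes the phosphatase VE-PTP that acts on TIE2 and VE-cadherin, and the adaptor gene Dok2 (1.35) in the authors' deposited table. Of 20 genes for partners of endothelial junctions 16 were listed, 5 positive (31.2%, near the 33.6% of all genes) and 11 negative. Of those 5, Ptprb, Cldn5 and Esam were also counted in the pan-endothelial list. By peak the junction list was even, with 13 called positive and 14 called negative of 29. By leading peak, Ctnnb1 (-1.70) and Ctnnd1 (-1.61), the catenin genes whose products bind the tail of VE-cadherin, were negative in the authors' deposited table, but Ctnnb1 also had 1 called positive peak and Ctnnd1 had 2. Ccm2, at -2.38 at its leading peak in the authors' deposited table, had 2 called positive peaks beside this negative one. The single peak of the junction gene F11r stood at -1.49 in the authors' deposited table. After subtracting the all-peak median 4 of these 16 genes were positive and 12 negative. These catenins and F11r are made in hepatocytes too, and the part of each cell type in their values was not tested.

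Among other scavenger, lectin and hyaluronan receptors, 14 of 21 genes were listed, 8 positive (57.1%), 3 negative and 3 not called. Colec12, which encodes a scavenger receptor with a lectin domain, stood at -1.59 in the authors' deposited table. Asgr1 (-0.29) and Asgr2 (0.61), which encode the subunits of the hepatocyte asialoglycoprotein receptor, had opposite signs in the authors' deposited table. Some genes stand in more than 1 of the 5 lists of companion genes. With each gene counted once, the lists held 115 names, of which 78 were listed. Of these 48 were positive (61.5%, against 33.6% of all genes), 22 negative and 8 not called.

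**Figure D5:**
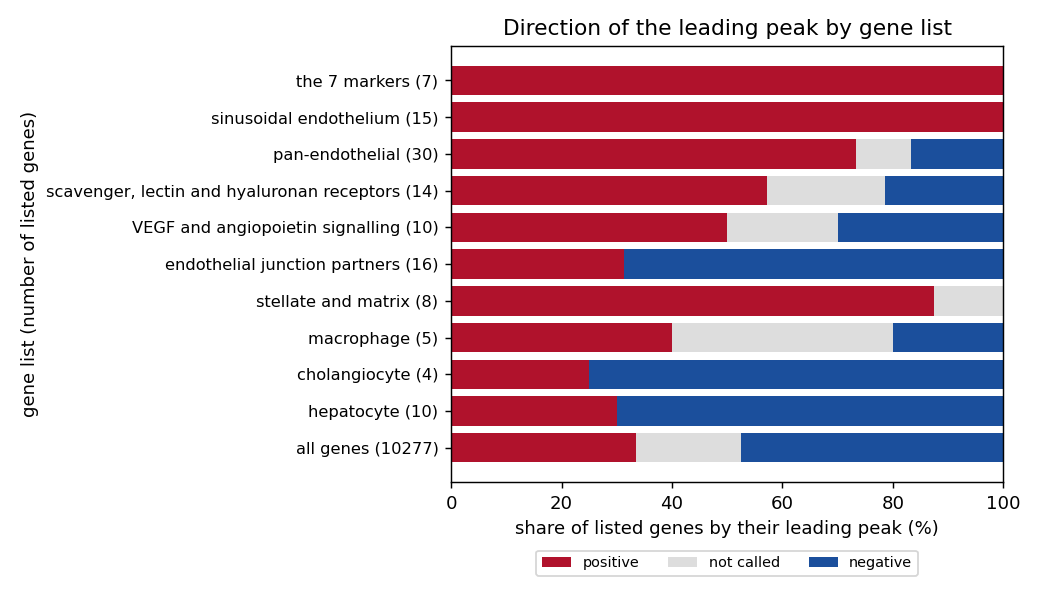
Share of listed genes (x axis, percent) whose leading peak was called positive (red), not called (grey) or called negative (blue), for each gene list (rows, number of listed genes in brackets). The 7 markers and the 15 sinusoidal genes are all red, while 33.6% of all genes and 31.2% of the junction partners are red.

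The endothelial genes can be set beside markers of the liver's other cell types. Stellate cell and matrix markers were nearest in direction, with 7 of 8 listed genes positive, 1 not called and none negative, and a median of 0.65; after subtracting the all-peak median 6 were positive and 1, Pdgfrb, negative. Of 10 listed hepatocyte markers 7 were negative and 3 positive by leading peak, with a median of -1.25 beside -0.52 over all listed genes. Their positive share of 30% was near the 33.6% of all genes, and by peak 8 were called positive and 12 negative of 21. Of 5 macrophage markers listed 2 were positive, 1 negative and 2 not called. Of 3 leukocyte markers 2 were positive and 1 not called, of 3 erythroid and platelet markers 1 positive and 2 not called, and of 4 cholangiocyte markers 3 negative and 1 positive. The part of the mix of cell types, and of the level of each RNA, in these directions was not tested. In the bulk tissue the change in a cell type's share and the change in m6A within that cell type cannot be told apart from these values alone.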

How the data were processed

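Per the labels' protocols, poly(A) RNA was fragmented, m6A-bearing fragments were pulled down with an antibody, and stranded libraries were made from these and from input mRNA. The submitters' processing notes name HISAT2 2.1.0 and the mm10 build. How peaks were called and filtered, how replicates were combined and which model compared the genotypes is not given in the sources used here. The authors deposited 1 table with a row per peak, holding a log2 fold change, the FDR as log10 (here a score of evidence, with a floor at -434), a p-value rounded to 2 decimals, and other measures, namely start, end, width and distance from the transcript start, per the file headers. Depth per library is unknown, and no count model or test per mouse was run.

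Of 17692 rows, 189 without a gene name, whose last cells stand in another order, were left out. Leading peaks, counts and medians were computed in Python 3.11.15 with pandas 2.3.3, and the counting steps were tested on simulated data. Each other gene list is described by its counts and by up to 4 called genes with the smallest FDR, ties by larger change; any gene named beyond that was chosen after its value was seen. Of the genes that the rule takes in the companion lists, 1 is not reported here by name or value, though it stays in the counts, medians and ranges. The 7 genes and all lists were chosen with earlier results of these data known. Names, spans and promoter sequence come from RefSeq GRCm38.p6; all 7 genes matched a symbol, and 4 a promoter.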

Additional observations from a re-analysis of the deposited data

How the results depend on the processing

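No alternative turned an endothelial gene or peak negative except centring on the median of all listed peaks, which turned the peak of Cdh5 and left 8 peaks and 6 genes positive. Centring kept the deposited FDR, so only signs could change. Of the 9 called positive peaks, 5 were left at an FDR of 0.001, 2 with a change of at least 1, and 3 among peaks of up to 1000 bp. Of the 7 positive genes, 1 was left with a change of at least 1 at the leading peak and 3 with peaks of up to 1000 bp. Fewer peaks enter under each of these. The median of 0.89 became 0.55 after centring, 0.81 over called peaks or over leading peaks, 1.09 with a mean per gene, 0.80 in the 5′ UTR, 0.91 in exons and 1.10 for peaks of up to 1000 bp. No paired analysis was possible because the table holds no values per library, and leaving out a replicate could not be tried for the same reason. Read depth behind the narrow peaks of Clec4g, Flt1 and Stab1 is unknown, so their large values that were not called have no error here.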
